A study of Glycine max with 12 samples.

Results

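Of the 69145 loci with gene models in the deposited tables, 5 that respond to or make a plant hormone are described here in immature soybean seed coats: ADR12 (Glyma10g35870), named as auxin down-regulated, an auxin-responsive GH3 gene (Glyma05g21680), a gene annotated as indole-3-acetic acid-induced (Glyma04g02780), a gibberellin regulated GAST1 homolog (Glyma04g02660) and an ethylene-forming enzyme or ACC oxidase (Glyma02g43560). They carry 10 of the 78773 splice models, with 5 models for Glyma02g43560, 2 for Glyma10g35870 and 1 for each of the others. The loci were selected on the difference in RPKM between defective and standard seed coats in these same libraries, so every defective to standard value below is a description and is given without a test. The locus numbers place ADR12 on chromosome 10, the GH3 gene on chromosome 5, the IAA-induced gene and the GAST1 homolog on chromosome 4 and the ACC oxidase on chromosome 2, and no finer positions were used.

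The seed coats came from 2 pairs of isolines grown in a greenhouse. Clark defective (i R T Def) and Clark standard (i R T) have black seed coats, and Harosoy defective (I r t Def) and Harosoy standard (I r t) have yellow ones. The defective lines carry the net pattern trait, in which cracks form in the seed coat, brought in from other accessions by backcrossing, and the gene behind Def is not known. Seeds were pooled and sorted by weight into 50–100, 100–200 and 400–500 mg before the seed coats were dissected, and each line and stage gave 1 RNA-Seq library, 12 in all, so no pair had replicates.

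Auxin, gibberellin and ethylene are small hormones that plant cells make, modify and sense. Free auxin (indole-3-acetic acid, IAA) is kept in check by GH3 enzymes, which join it to amino acids, and GH3 transcripts themselves respond to auxin. ADR transcripts were first described in soybean seedlings as falling after auxin is applied. GAST1 is a gibberellin-stimulated transcript of tomato, and its relatives encode small secreted cysteine-rich proteins. Ethylene is made from methionine through ACC, with ACC synthase making ACC and ACC oxidase turning it into ethylene.

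Levels are RPKM, the hits on a gene model per kilobase of its length, scaled to the size of the library. A hit is 1 alignment, and the hits behind each RPKM were recovered from its numerical steps. The libraries held 47.5 to 113 M hits, and intervals below cover counting error only, not the spread between plants. The 100–200 mg libraries were read on another instrument and at 75 bp rather than 100 bp, so stage and instrument cannot be told apart there, and pigment, RNA extraction and background cannot be told apart between Clark and Harosoy. Of the seed coat markers, the proline-rich proteins PRP1 and PRP2 summed to between 1356 and 12914 RPKM. Singly, PRP1 ranged from 12.2 to 12890 RPKM and PRP2 from 4.12 to 4584 RPKM. At 100–200 mg 1 of them was at least 2-fold higher and 1 lower in the defective line of each background. The 6 cotyledon storage protein genes summed to 20.4 and 85.8 RPKM in Clark defective and standard at 100–200 mg. At that stage they summed to 408 and 453 RPKM in Harosoy defective and standard. Their highest sum was 1092 RPKM, in Harosoy standard at 400–500 mg. Their part in the results was not tested. In bulk tissue, fewer cells of a type and less RNA per cell cannot be told apart.

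To be called in a pair, a model had to differ by at least 2-fold and reach 5 RPKM in 1 or both of the libraries. Of all models that reached 5 RPKM, 3.94% were called in Clark and 0.572% in Harosoy at 50–100 mg, 4.77% and 14.3% at 100–200 mg, and 3.22% and 9.64% at 400–500 mg. Of the 5 loci, read by their first splice model, 3 were called in Clark and 2 in Harosoy at 50–100 mg, 4 and 5 at 100–200 mg, and 3 and 1 at 400–500 mg. The same contrast selected the loci, and nothing is read from their counts. Just outside the 2-fold limit lay ADR12 in Harosoy, 1.68-fold higher in defective at 50–100 mg and 1.90-fold lower at 400–500 mg. Just inside it lay the IAA-induced gene, 2.12-fold lower in Harosoy defective at 50–100 mg and 2.18-fold higher in Clark defective at 100–200 mg.

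**Figure D1:**
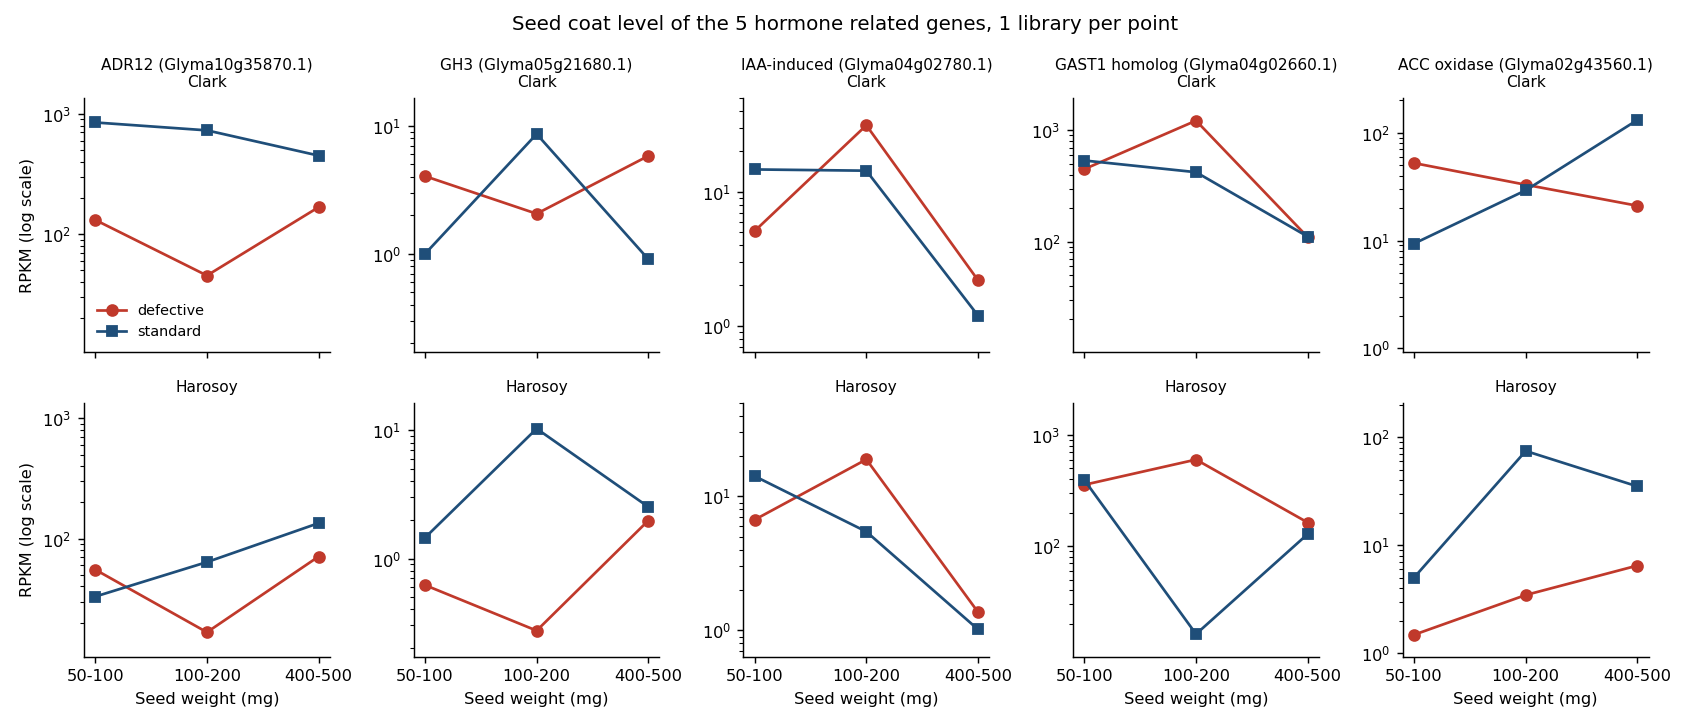
RPKM on a log axis against seed weight in mg for the 5 genes, with 1 library per point, Clark in the upper row and Harosoy in the lower row, and defective (circles) and standard (squares) lines. At 100–200 mg the GAST1 homolog and the IAA-induced gene lie higher in the defective line of both backgrounds, and ADR12 and the GH3 gene lie lower.

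In Clark, ADR12 was lower in the defective line at every stage, by far the most at 100–200 mg. Glyma10g35870.1 had 131, 45.2 and 167 RPKM in Clark defective at 50–100, 100–200 and 400–500 mg, against 848, 729 and 449 RPKM in Clark standard. The difference was 6.47-fold at 50–100 mg (95% counting interval 6.31 to 6.63), 16.1-fold at 100–200 mg (15.4 to 16.9) and 2.68-fold at 400–500 mg (2.60 to 2.77). The standard line declined with seed weight while the defective line was lowest at the middle stage.

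In Harosoy the ADR12 levels were lower throughout and the direction of the pair depended on the stage. Glyma10g35870.1 had 55.2, 16.6 and 71.0 RPKM in Harosoy defective, against 33.0, 63.8 and 135 RPKM in Harosoy standard. The defective line was 1.68-fold higher at 50–100 mg, below the 2-fold limit, then 3.83-fold lower at 100–200 mg (3.50 to 4.21) and 1.90-fold lower at 400–500 mg. Over the 12 libraries the transcript ranged 50.9-fold, and the 3 highest levels were the 3 Clark standard libraries. Of neighbouring levels in that order, only Harosoy standard at 400–500 mg and Clark defective at 50–100 mg, at 135 and 131 RPKM, lay within counting error of each other.

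The second splice model, Glyma10g35870.2, followed the first at 0.925 to 0.992 times its RPKM in all 12 libraries. A nearby locus with no annotated function in the study, Glyma10g35840, did so as well. It received between 0.924 and 0.949 times the hits of Glyma10g35870.1 in every library, and at 100–200 mg it had 32.4 RPKM in Clark defective against 523 RPKM in Clark standard. Because a read could be placed on up to 25 models, how many of these hits belong to each locus cannot be told apart.

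The GH3 gene was a low transcript that was lower in defective seed coats of both backgrounds at 100–200 mg, and in Clark it was higher in defective seed coats before and after. Glyma05g21680.1 had 4.05, 2.06 and 5.82 RPKM in Clark defective at the 3 stages, against 1.0, 8.63 and 0.909 RPKM in Clark standard. In Harosoy defective it had 0.620, 0.273 and 1.98 RPKM, against 1.45, 10.3 and 2.53 RPKM in Harosoy standard. Both standard lines thus held their highest level at 100–200 mg, where both defective lines held their lowest. In the order of the 12 levels, Clark defective at 100–200 mg and Harosoy defective at 400–500 mg lay within counting error, as did Clark standard at 50–100 and 400–500 mg.

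At 100–200 mg the GH3 gene was 4.19-fold lower in Clark defective (3.71 to 4.75) and 37.8-fold lower in Harosoy defective, the last with the wide interval of 26.9 to 54.7 because that library gave 34 hits. In Clark at 400–500 mg it was 6.41-fold higher in the defective line (5.31 to 7.77). The Clark excess at 50–100 mg was 4.05-fold (3.43 to 4.81), and both libraries were below the 5 RPKM limit, as they were in Harosoy at 50–100 and 400–500 mg.

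The IAA-induced gene crossed over in both backgrounds. Glyma04g02780.1 had 5.10, 31.4 and 2.19 RPKM in Clark defective at the 3 stages, against 14.7, 14.4 and 1.19 RPKM in Clark standard. In Harosoy defective it had 6.69, 18.9 and 1.37 RPKM, against 14.2, 5.46 and 1.02 RPKM in Harosoy standard. Defective seed coats were the lower ones at 50–100 mg in both pairs and the higher ones at 100–200 mg in both pairs. They were 2.88-fold lower in Clark (2.52 to 3.30) and 2.12-fold lower in Harosoy (1.84 to 2.43) at 50–100 mg. They were 2.18-fold higher in Clark (2.01 to 2.37) and 3.46-fold higher in Harosoy (2.97 to 4.05) at 100–200 mg. At 400–500 mg all 4 lines were near 1 to 2 RPKM with 46 to 61 hits, and in Harosoy the ratio of 1.35 had an interval of 0.878 to 2.07. In the order of the levels, both standard lines at 50–100 mg and Clark standard at 100–200 mg, between 14.2 and 14.7 RPKM, lay within counting error of their neighbours. The same held for Harosoy standard at 100–200 mg with Clark defective at 50–100 mg. At 400–500 mg it held for Harosoy defective with Clark standard and for Clark standard with Harosoy standard.

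The GAST1 homolog had the highest median of the 5 genes over the 12 libraries, 375 RPKM beside 101 RPKM for ADR12, which was above it in 6 of the 12, and it differed between defective and standard mainly at 100–200 mg. Glyma04g02660.1 had 448, 1222 and 110 RPKM in Clark defective at the 3 stages, against 536, 421 and 111 RPKM in Clark standard. In Harosoy defective it had 356, 600.3 and 163 RPKM, against 393, 16.2 and 129 RPKM in Harosoy standard. The defective seed coats were 2.91-fold higher at 100–200 mg in Clark (2.86 to 2.95) and 37.0-fold higher in Harosoy (34.2 to 40.1).

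The Harosoy difference of the GAST1 homolog came with a very low standard library. Harosoy standard was 24.2-fold lower at 100–200 mg than at 50–100 mg, and then 7.93-fold higher at 400–500 mg than at 100–200 mg. The defective lines held their highest level at 100–200 mg, 2.73-fold above 50–100 mg in Clark and 1.69-fold above it in Harosoy. At 50–100 and 400–500 mg the ratios of defective to standard lay between 0.837 and 1.27 in both backgrounds. Only the pair of Clark at 400–500 mg lay within counting error of each other in the order of the 12 levels.

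The ACC oxidase was lower in defective seed coats of both backgrounds at 400–500 mg, and at 50–100 mg the backgrounds went opposite ways. Glyma02g43560.1 had 52.2, 32.9 and 21.0 RPKM in Clark defective at the 3 stages, against 9.37, 29.2 and 131 RPKM in Clark standard. In Harosoy defective it had 1.48, 3.45 and 6.46 RPKM, against 5.0, 74.6 and 35.0 RPKM in Harosoy standard. Clark defective declined with seed weight where the other lines ended above their first level. No 2 neighbours in the order of the 12 levels lay within counting error.

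At 50–100 mg the ACC oxidase was 5.58-fold higher in Clark defective (5.22 to 5.96) and 3.39-fold lower in Harosoy defective (2.81 to 4.10). At 100–200 mg it was 1.13-fold higher in Clark defective and 21.6-fold lower in Harosoy defective (19.2 to 24.5). At 400–500 mg it was 6.24-fold lower in Clark defective (5.89 to 6.62) and 5.42-fold lower in Harosoy defective (4.92 to 5.97). The splice models Glyma02g43560.2 to Glyma02g43560.5 had 0.615 to 0.845 times the RPKM of the first in every library, with 0.845 to 0.975 times its hits, and reads they may share with it were not separated, so they are not separate measurements. Harosoy standard at 50–100 mg sat on the 5 RPKM limit, and models 2 to 5 were below it there and were not called.

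**Figure D2:**
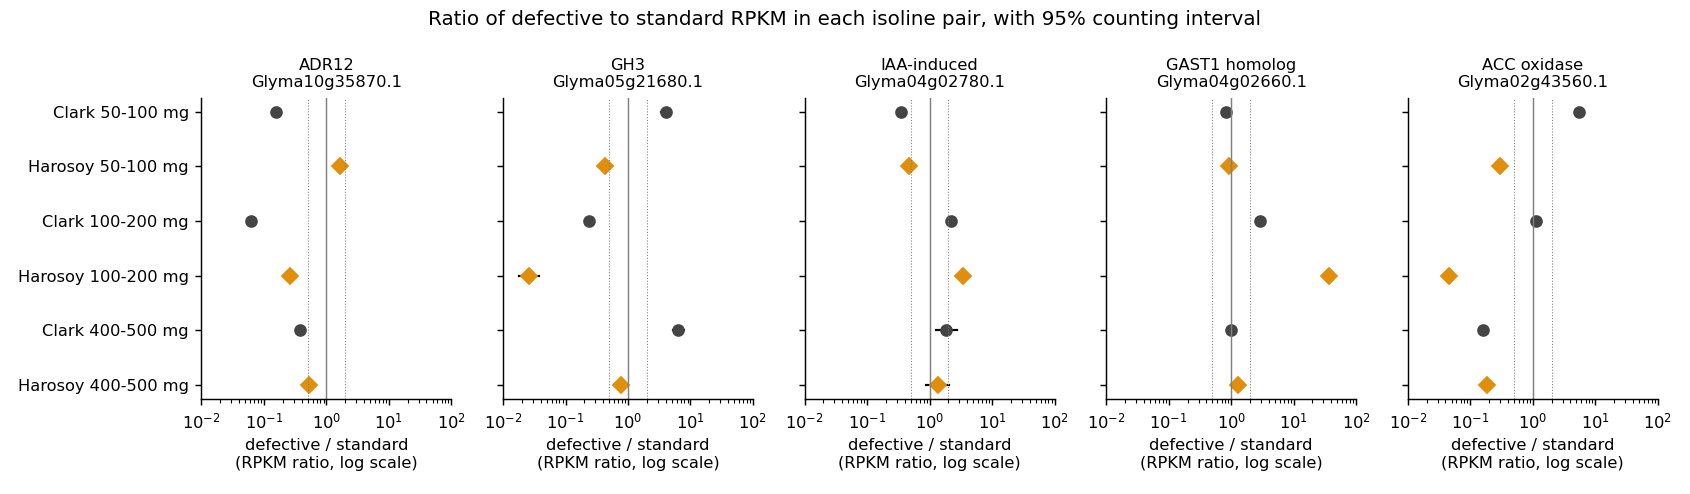
Ratio of defective to standard RPKM on a log axis for each of the 6 isoline pairs (circles Clark, diamonds Harosoy), with 95% counting intervals as bars where they are wider than the symbol and dotted lines at 2-fold. The largest ratios are at 100–200 mg in Harosoy, 37.0 for the GAST1 homolog, and 37.8-fold in the lower direction for the GH3 gene.

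The change over development was tested apart from the defective trait by setting 400–500 mg against 50–100 mg in the 4 lines, with the line as a block and all 43849 models that had at least 1 RPKM in at least 2 libraries. All 10 splice models of the 5 loci were among them. Of these models 52.1% passed at an adjusted p under 0.05. Of the 5 loci, 2 passed and both fell. The IAA-induced gene fell by 2.10 ± 0.35 on the log2(RPKM + 1) scale (SE, n = 8 libraries; limma, adjusted p = 0.0048) and was lower at 400–500 mg in 4 of 4 lines. The GAST1 homolog fell by 1.75 ± 0.24 (limma, adjusted p = 0.0022), again in 4 of 4 lines. It did not pass when the 100–200 mg libraries were added to the fit (limma, adjusted p = 0.148, with 0.0013 to 0.148 over the alternatives), and that fit took its spread from all 12 libraries.

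The other 3 loci did not pass the developmental test. The GH3 gene differed by 0.44 ± 0.16 (limma, adjusted p = 0.067), and ADR12 by 0.45 ± 0.45 (limma, adjusted p = 0.43). ADR12 was higher at 400–500 mg in 3 of 4 lines, and in Clark standard it had 449 RPKM at 400–500 mg against 848 RPKM at 50–100 mg. The ACC oxidase differed by 1.64 ± 0.77 (limma, adjusted p = 0.12), with an interval of -0.26 to 3.54. It was 14-fold higher at 400–500 mg in Clark standard, 7.0-fold higher in Harosoy standard and 4.38-fold higher in Harosoy defective, and 2.49-fold lower in Clark defective. Without the Clark defective line the ACC oxidase difference was 2.62 and passed (limma, adjusted p = 0.0072, with 0.0072 to 0.35 over the alternatives). The p-values measure the spread between these lines, each seen once per stage.

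The background was tested as Harosoy over Clark in the 12 libraries, blocked by genotype and stage, and 16.4% of 46237 models passed. ADR12 was the only one of the 5 loci to pass. The difference, Harosoy minus Clark, was -2.29 ± 0.48 on the log2(RPKM + 1) scale (SE, n = 12 libraries; limma, adjusted p = 0.020), and the transcript was lower in Harosoy in 6 of 6 blocks. In standard seed coats Harosoy ADR12 was 25.7-fold lower than Clark at 50–100 mg, 11.4-fold lower at 100–200 mg and 3.34-fold lower at 400–500 mg. In defective seed coats it was 2.37-fold, 2.71-fold and 2.36-fold lower at the same stages, so the background ratio was nearly constant there. Without the defective 100–200 mg block the adjusted p was 0.055 (limma, 0.019 to 0.055 over the alternatives) and the difference was -2.47.

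The ACC oxidase differed by -1.71 ± 0.63 on the same scale and did not pass (limma, adjusted p = 0.099), and it was lower in Harosoy in 5 of 6 blocks. The exception was the standard line at 100–200 mg, with 74.6 RPKM in Harosoy and 29.2 RPKM in Clark. Without that block the difference was -2.32 (limma, adjusted p = 0.033, with 0.033 to 0.24 over the alternatives). The largest background ratio of the gene was in defective seed coats at 50–100 mg, 1.48 RPKM in Harosoy against 52.2 RPKM in Clark. The GAST1 homolog, the GH3 gene and the IAA-induced gene had differences of -0.94 ± 0.62, -0.45 ± 0.34 and -0.37 ± 0.19 and did not pass (limma, adjusted p = 0.32, 0.39 and 0.21). Each background is 1 cultivar with 2 isolines, and the p-values measure only the spread between these blocks.

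**Figure D3:**
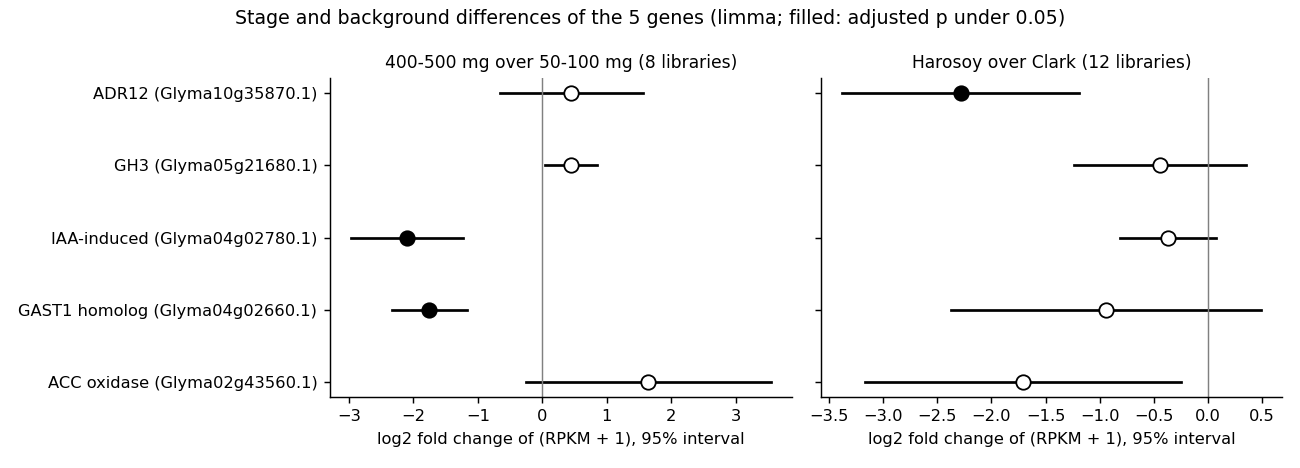
Log2 fold change of RPKM + 1 with its 95% interval from limma for each of the 5 genes, on the left 400–500 mg over 50–100 mg and on the right Harosoy over Clark, with filled symbols where the adjusted p was under 0.05. Filled symbols mark the falls of 2.10 and 1.75 with development and the difference of -2.29 for ADR12 in Harosoy.

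The loci whose pattern over the 12 libraries was most like each of the 5 genes were found by Pearson's correlation of log2(RPKM + 1), given as a description because the libraries share lines, stages and instruments. For the ACC oxidase the 3 nearest loci, of all those measured, were themselves annotated as ACC oxidases, Glyma06g24130 (r = 0.996), Glyma14g05390 (0.990) and Glyma08g27530 (0.977). Glyma06g24130.1 had 16.1, 11.1 and 6.62 RPKM in Clark defective at the 3 stages, against 3.0, 10.4 and 40.2 RPKM in Clark standard. Glyma14g05390.1 received 0.440 to 0.824 times the hits of Glyma02g43560.1, a ratio that varied between libraries. Shared reads among these models could not be separated.

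**Figure D4:**
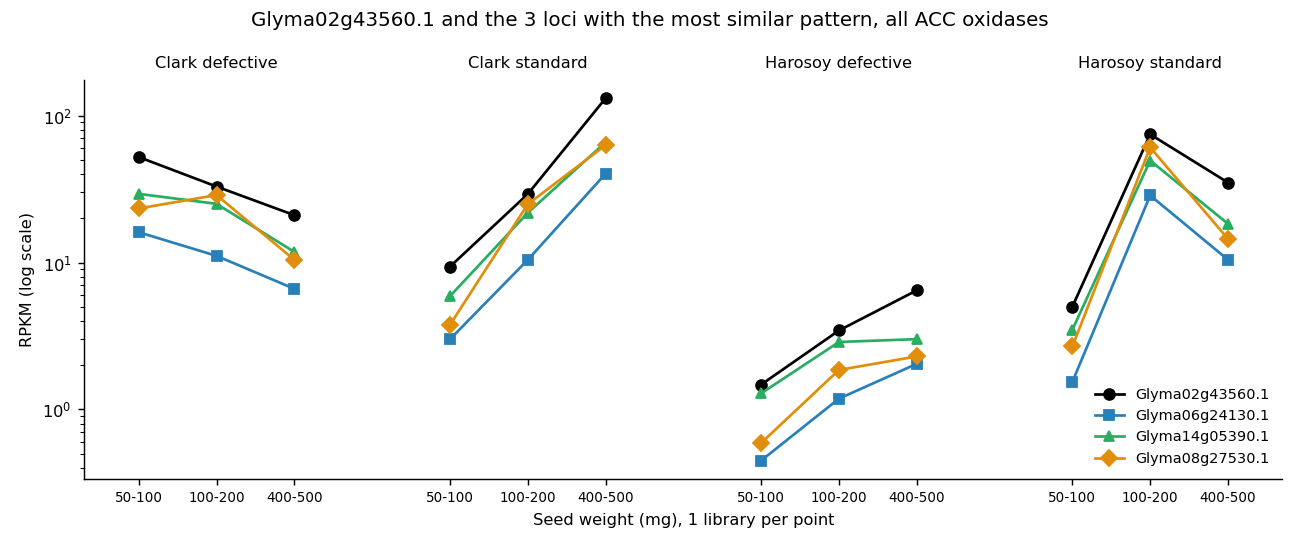
RPKM on a log axis against seed weight in mg in each of the 4 lines for Glyma02g43560.1 and the 3 loci nearest to it in pattern, with 1 library per point. All 4 loci are higher at 400–500 mg than at 50–100 mg in 3 lines and lower in Clark defective, where Glyma02g43560.1 had 21.0 RPKM at 400–500 mg.

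For the IAA-induced gene the nearest loci were Glyma06g02810 (r = 0.989), Glyma02g03390 (0.981) and Glyma02g07940 (0.974), all of low level with at most 5.85 RPKM. Glyma06g02810.1 had 5.85 RPKM in Clark defective against 2.78 RPKM in Clark standard at 100–200 mg, and 3.71 RPKM in Harosoy defective against 0.813 RPKM in Harosoy standard. ADR12 was nearest to Glyma10g35840 (r = 1.0), and after it to Glyma01g01930 (0.903) and Glyma12g05040 (0.884), which varied little, between 3.73 and 6.07 RPKM and between 0.533 and 2.25 RPKM. The GH3 gene was nearest to Glyma06g08100 (0.885), Glyma04g08050 (0.878) and Glyma08g23540 (0.877). The GAST1 homolog was nearest to Glyma18g52290 (0.904), Glyma02g38690 (0.90) and Glyma13g23930 (0.90).

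Of the 50 loci numbered next to the 5 genes, 5 on each side of each, 26 reached 5 RPKM in some pair and 5 were called in any pair. Within single pairs, 0.572% to 14.3% of all models at 5 RPKM were called. The share called in any of the 6 pairs was not worked out, and nothing is read from the count. Around ADR12 the called locus was Glyma10g35840, described above, whose hits could not be separated from those of ADR12. Around the ACC oxidase it was the ethylene-forming enzymes Glyma02g43580 and Glyma02g43600, with Glyma02g43530, annotated as an alpha-galactosidase family protein. Glyma02g43600.1 had 1.07 RPKM in Clark defective at 400–500 mg against 38.8 RPKM in Clark standard, and Glyma02g43580.1 had 0.756 RPKM in Clark defective against 15.8 RPKM in Clark standard. Both were under 1 RPKM in each of the other libraries. Glyma02g43530.1 had 4.18 RPKM in Clark defective against 8.41 RPKM in Clark standard at 50–100 mg. Near the GAST1 homolog Glyma04g02610.1, a tubulin beta chain, had 7.26 RPKM in Clark defective against 2.84 RPKM in Clark standard at 400–500 mg. None of the 20 loci around the GH3 and IAA-induced genes was called. Only 1 of the 10 around the GH3 gene and 5 of the 10 around the IAA-induced gene reached 5 RPKM. The others could not have been called.

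To set the 5 genes among others of their pathways, 69 further loci in 9 lists were read by their most abundant splice model. The lists were drawn up here, by annotation, from the study's tables of genes that differed in these same libraries. Their counts, here and in the paragraphs below, are thus not independent evidence of a direction or of a high share called. In Clark at 50–100 mg 25 of the 53 loci that reached 5 RPKM were called higher in defective and 2 lower. Of all 24622 models at 5 RPKM in that pair, 717 were higher and 252 lower. Of 52 loci in the Harosoy pair at 100–200 mg, 8 were higher and 35 lower, beside 1461 higher and 2147 lower of 25273 models. The Harosoy pair at 50–100 mg had 0 higher and 2 lower of 42 loci, beside 71 higher and 65 lower of 23796 models. The Clark pair at 100–200 mg had 4 higher and 10 lower of 51 loci, beside 736 and 423 of 24277 models. At 400–500 mg the Clark pair had 7 higher and 16 lower of 58 loci, beside 304 and 470 of 24008 models. The Harosoy pair had 4 higher and 21 lower of 45 loci at that stage, beside 1167 and 1093 of 23454 models.

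The auxin lists, drawn from genes that differed in these same libraries, held 25 loci. At 100–200 mg none was called higher in either defective line, and 4 of 21 were lower in Clark and 16 of 21 in Harosoy, where 4.77% and 14.3% of all models were called in either direction. ADR12 and Glyma05g21680 were lower in both pairs at that stage, and the IAA-induced Glyma04g02780 was higher in both. At 50–100 mg 12 of 21 list loci were higher in Clark defective and 2 of 21 lower in Harosoy defective. Of all models at 5 RPKM, 3.94% and 0.572% were called at that stage in either direction. Of the 6 other GH3 amido synthetases, 4 reached 5 RPKM in each pair at 100–200 mg. The median log2 ratio of all 6 was -0.20 in Clark and -0.99 in Harosoy, beside -0.01 and -0.06 over all models at 5 RPKM. Glyma02g13910.1 was the lowest of them, with 16.8 RPKM in Harosoy defective against 149 RPKM in Harosoy standard and 18.5 RPKM in Clark defective against 22.0 RPKM in Clark standard. Glyma16g03010.1 was the highest, with 2.36 RPKM in Clark defective against 2.56 RPKM in Clark standard and 1.96 RPKM in Harosoy defective against 1.43 RPKM in Harosoy standard.

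Of the 7 dormancy or auxin associated loci, 6 reached 5 RPKM in each pair at 100–200 mg, and 3 were called lower in Clark and 6 in Harosoy. Of all models at 5 RPKM, 4.77% and 14.3% were called in either direction. The 7 loci had medians of -0.84 in Clark and -1.38 in Harosoy. They ran from Glyma10g29190.4, with 13.6 RPKM in Clark defective against 37.6 RPKM in Clark standard and 10.8 RPKM in Harosoy defective against 29.6 RPKM in Harosoy standard, to Glyma13g31060.1, with 369 RPKM in Clark defective against 540 RPKM in Clark standard and 330 RPKM in Harosoy defective against 795 RPKM in Harosoy standard. The 3 ARG2 loci, named for an auxin-responsive gene of mung bean, had medians of -0.08 and -1.90. Glyma03g41390.1 was the lowest, with 36.5 RPKM in Clark defective against 83.5 RPKM in Clark standard and 26.6 RPKM in Harosoy defective against 131 RPKM in Harosoy standard. Glyma10g02210.1 was the highest, with 19.2 RPKM in Clark defective against 13 RPKM in Clark standard and 6.43 RPKM in Harosoy defective against 20.6 RPKM in Harosoy standard. The 9 Aux/IAA and related loci, which include repressors of auxin response, had medians of -0.16 and -0.89. Glyma02g16090.1 had 37.5 RPKM in Harosoy defective against 204 RPKM in Harosoy standard and 39.9 RPKM in Clark defective against 46.7 RPKM in Clark standard, and Glyma08g37070.1 had 24.7 RPKM in Harosoy defective against 25.4 RPKM in Harosoy standard and 32.3 RPKM in Clark defective against 30.5 RPKM in Clark standard.

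The gibberellin lists went both ways at 100–200 mg. Of 14 GAST1-type loci, 12 reached 5 RPKM in Clark and 11 in Harosoy. Of these, 2 were called higher and 4 lower in Clark defective and 7 higher and 3 lower in Harosoy defective. Of all models at 5 RPKM, 4.77% and 14.3% were called in either direction. The medians over the 14 loci were 0.36 and 1.02. Glyma06g02690.1 was the highest, with 511 RPKM in Clark defective against 195 RPKM in Clark standard and 291 RPKM in Harosoy defective against 8.14 RPKM in Harosoy standard. Over the 12 libraries it had 0.189 to 0.960 times the RPKM of the GAST1 homolog Glyma04g02660. Glyma20g26730.1 was the lowest, with 17.3 RPKM in Clark defective against 135 RPKM in Clark standard and 4.84 RPKM in Harosoy defective against 79.9 RPKM in Harosoy standard. The same annotation thus covered loci that were higher and loci that were lower in defective seed coats of both backgrounds.

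The 6 loci of gibberellin metabolism and perception had medians of 0.02 in Clark and -0.22 in Harosoy at 100–200 mg. Of the 4 that reached 5 RPKM in each pair, none was called in Clark and 2 were lower in Harosoy. Of all models at 5 RPKM, 4.77% and 14.3% were called in either direction. Glyma15g10070.1 had 10.7 RPKM in Clark defective against 17.3 RPKM in Clark standard and 7.59 RPKM in Harosoy defective against 20.5 RPKM in Harosoy standard, and Glyma06g46520.1 had 4.74 RPKM in Clark defective against 3.87 RPKM in Clark standard and 16.7 RPKM in Harosoy defective against 9.07 RPKM in Harosoy standard.

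The ethylene lists held 24 loci. Of 9 other ACC oxidases, none reached 5 RPKM in Harosoy at 50–100 mg. In Clark at that stage 4 did, and of these 3 were called higher in the defective line and none lower. At 100–200 mg 5 of the 5 at 5 RPKM were lower in Harosoy defective and 1 of 5 in Clark defective. At 400–500 mg 8 of 9 were lower in Clark defective and 3 of 4 in Harosoy defective. Of all models at 5 RPKM, 3.94% were called in Clark at 50–100 mg, 4.77% and 14.3% in Clark and Harosoy at 100–200 mg, and 3.22% and 9.64% at 400–500 mg. Over all 9 of these ACC oxidases the median log2 ratio at 400–500 mg was -2.48 in Clark and 0.07 in Harosoy. Over all models at 5 RPKM it was 0.00 and -0.08. The Harosoy median of the ACC oxidases includes loci below 5 RPKM, since only 4 of the 9 reached it. At 100–200 mg Glyma08g27530.1 was the lowest by the mean of both backgrounds, with 1.86 RPKM in Harosoy defective against 60.8 RPKM in Harosoy standard and 28.8 RPKM in Clark defective against 24.9 RPKM in Clark standard. Glyma02g43580.1 was the highest at that stage, at under 1 RPKM in all 4 libraries.

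Both ACC synthases were called lower in Harosoy defective at 100–200 and 400–500 mg and in no Clark pair. Of all models at 5 RPKM, 14.3% and 9.64% were called in Harosoy at these stages, and 3.22% to 4.77% in the Clark pairs. Glyma08g02130.1 had 17.8 RPKM in Harosoy defective against 59.2 RPKM in Harosoy standard and 23.3 RPKM in Clark defective against 26.6 RPKM in Clark standard at 100–200 mg, and Glyma05g37410.1 had 15.3 RPKM in Harosoy defective against 44.3 RPKM in Harosoy standard and 21.8 RPKM in Clark defective against 22.5 RPKM in Clark standard. Of the 13 ethylene response factors, transcription factors named for their part in ethylene signalling, 9 reached 5 RPKM in Harosoy at 100–200 mg and 7 in Clark. Of these, 7 were lower and 1 higher in Harosoy defective and 1 was lower and 2 higher in Clark defective. Of all models at 5 RPKM, 14.3% and 4.77% were called in either direction. The medians over the 13 loci were -1.45 and -0.10. Glyma20g33800.1 had 1.94 RPKM in Harosoy defective against 31.7 RPKM in Harosoy standard and 3.12 RPKM in Clark defective against 7.66 RPKM in Clark standard. Glyma07g37410.1 had 53.1 RPKM in Harosoy defective against 22.1 RPKM in Harosoy standard and 44.3 RPKM in Clark defective against 21.4 RPKM in Clark standard.

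**Figure D5:**
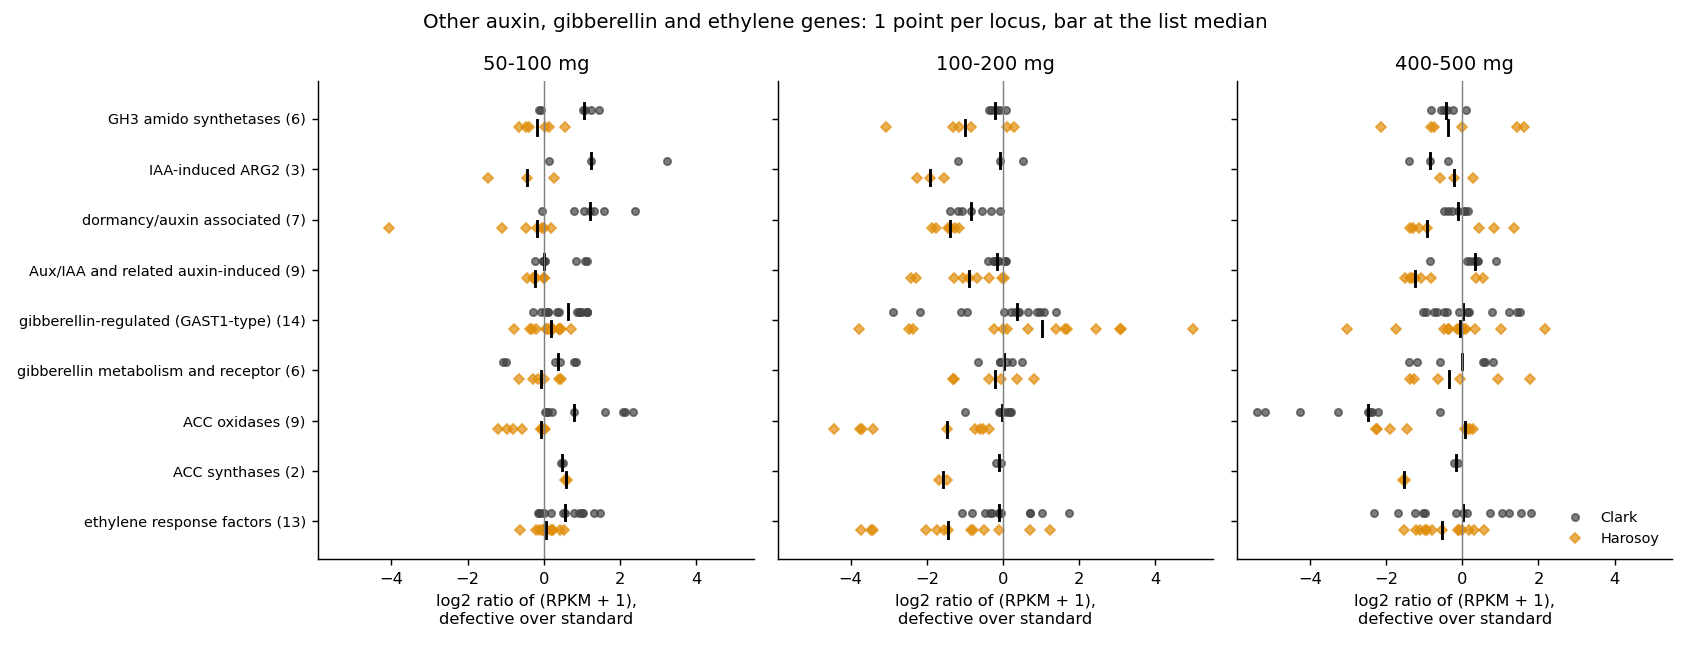
Log2 ratio of RPKM + 1, defective over standard, of the 69 further hormone loci at the 3 stages, with 1 point per locus, circles for Clark, diamonds for Harosoy and a bar at the median of each list (number of loci in brackets). At 100–200 mg the Harosoy points of the auxin and ethylene lists lie mostly left of 0, and those of the GAST1-type list spread to both sides around a median of 1.02.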

How the data were processed

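Seed coat RNA of 4 soybean lines at 3 seed weights was sequenced on Illumina GAII (75 bp, 100–200 mg) or HiSeq2000 (100 bp). Per the study's methods, the authors placed reads with Bowtie on the 78773 gene models (up to 3 mismatches, and up to 25 placements of a read) and deposited RPKM values, scaled for each library on its own. The version of Bowtie is not given in the sources used here. The authors' tests on unreplicated counts were not repeated. Hits, lengths and library totals (47.5 to 113 M) were recovered from the steps of the deposited RPKM. In 733 low models used to set the scale, 100% of lengths came out whole within 0.02.

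Ratios within a pair were described with exact 95% counting intervals, and log2 ratios used a pseudocount of 1 RPKM. Stage and background differences were fitted with limma 3.58.1 in R 4.3.3 (trend, empirical Bayes, Benjamini-Hochberg adjustment over all models, threshold 0.05) on models with at least 1 RPKM in 2 libraries. The fits were tested on simulated data. The developmental fit recovered 58% of 2-fold, 72% of 4-fold and 91% of 8-fold changes, and the background fit 66%, 88% and 97%. False calls were 9 of 41405 and 9 of 43077 unchanged models. Alternatives changed the pseudocount, filter, scaling, trend, splice models, stages, fold and libraries. Named were all splice models of the 5 loci, called loci among the 5 numbered on either side, the 3 most correlated loci of each, and the lowest and highest locus of each list at 100–200 mg. The members and lists were chosen with earlier results of these data known. No sequence was printed, because none paired with these gene models was used here.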

Additional observations from a re-analysis of the deposited data

Results flagged for a closer look

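Of the 5 genes, 3 had differences between defective and standard seed coats that passed 2-fold in opposite directions in groups of the study. The share of all models that did so was not worked out, and nothing is read from the count. Each value is a single pair of libraries, the difference between pairs was not tested, and these contrasts also served to choose the genes.

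The ACC oxidase Glyma02g43560.1 differed between backgrounds at 50–100 mg. The log2 ratio of RPKM + 1, defective over standard, was 2.36 in Clark and -1.28 in Harosoy. It also differed between stages of Clark, at -2.59 at 400–500 mg.

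The IAA-induced gene Glyma04g02780.1 differed between stages in the same way in both backgrounds. The log2 ratio was -1.36 in Clark and -0.98 in Harosoy at 50–100 mg, and 1.07 in Clark and 1.62 in Harosoy at 100–200 mg.

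The GH3 gene Glyma05g21680.1 differed between stages of Clark, with a log2 ratio of -1.66 at 100–200 mg and 1.84 at 400–500 mg.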

How the results depend on the processing

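With a filter of 5 RPKM in 2 libraries 14985 models passed the developmental test, against 22838, since fewer models were tested, and the GH3 gene had no value there. Leaving out 1 line gave 15649 to 21705. Leaving out 1 block of the background test gave 2069 (without the defective 100–200 mg block) to 5249 models, against 7568, and only without the standard 100–200 mg block was the count within 1.5 times. The developmental difference of ADR12 lay between -0.069 and 0.90 (Glyma10g35870.1) and between -0.049 and 0.91 (Glyma10g35870.2) when 1 line was left out, below 0 without Harosoy standard. The GH3 gene passed that test with quantile normalization (0.69, limma adjusted p = 0.024) and without Clark standard (0.61, adjusted p = 0.031), with adjusted p of 0.024 to 0.57 over the alternatives. The IAA-induced gene passed the developmental test under 12 of 12 alternatives.

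With 1 model per locus 3, 5, 3 and 1 members were called in Clark at 50–100 mg, Harosoy at 100–200 mg, Clark at 400–500 mg and Harosoy at 400–500 mg, against 8, 10, 8 and 5 splice models. In Harosoy at 50–100 mg 7 splice models were called with a minimum of 1 RPKM and 1 each with 10 RPKM or 3-fold, against 2. At 3-fold 3 splice models were called in Clark at 100–200 mg, against 5. Of the list loci 6 and 1 were called at 3-fold in Clark and Harosoy at 50–100 mg, against 27 and 2. In Clark at 100–200 mg and Harosoy at 400–500 mg 3 and 11 were called at 3-fold, against 14 and 25. The shares of all models called at these altered limits were not worked out, and nothing is read from these counts. Rescaling each pair to a median ratio of 1 changed no count of members or list loci by over 1.5 times.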
